A study of Mus musculus with 8 samples.

Results

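Purinergic signalling is described here through 10 genes, namely Slc17a9, Entpd1, Nt5e, P2rx1, P2rx4, P2rx7, P2ry1, P2ry2, P2ry14 and Adora2a. They were taken by gene symbol from a table of 23284 symbols. The set was chosen from measured values of the same libraries, with the difference of Slc17a9 between the groups in view, so the levels of the 10 genes in the 2 groups are given as a description and without a test. RNA came from pancreas cells of mice that carry both Dclk1-CreERT and tdtomato, on a CBA x C57BL/6J background, and all 8 libraries share these alleles. The labels place 4 libraries (1 to 4) in a Dclk1+ group and 4 (5 to 8) in a Dclk1- group. CreERT is a Cre recombinase that tamoxifen switches on, here named for the kinase gene Dclk1, and tdTomato is a red fluorescent reporter. The labels used here do not give the age or sex of the mice, the time or dose of any induction, the sorting gate, or whether libraries came from separate animals. P-values therefore measure the spread between these libraries, which may be technical.

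Extracellular ATP is a signal between cells. It is loaded into secretory vesicles by the vesicular nucleotide transporter VNUT, the product of Slc17a9, and is sensed by P2X ion channels and by P2Y receptors, which couple to G proteins. Ectonucleotidases at the cell surface take ATP down to AMP (CD39, the product of Entpd1) and AMP on to adenosine (CD73, the product of Nt5e), which acts on receptors of its own. In the pancreas, ATP is released with zymogen from acinar cells and acts on P2 receptors of duct cells, and the same system is used by lymphocytes, macrophages, platelets and smooth muscle.

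Total counts were between 7990777 and 10282911 for Dclk1+ and between 6353841 and 7242084 for Dclk1-, and 1 count was worth 0.102 to 0.193 CPM, the count scaled to library size. Ribosomal RNA (Rn45s) made up 34.2% and 26.1% of the total in Dclk1- libraries 7 and 8 and 8.90% to 18.3% elsewhere. Libraries 7 and 8 also had the fewest detected genes, 14121 and 13958, against 14935 to 16485 in the others. Entpd1, P2rx1, P2ry1 and P2ry2 were lowest and Adora2a highest in this pair of libraries, and the part of the ribosomal share in these levels was not tested. Dclk1 itself was at 17.9 to 221 CPM in the Dclk1+ group and at 2.67 to 15.04 CPM in the Dclk1- group, lowest among Dclk1+ libraries in library 4. That library also had the most RNA of T cell, B cell and macrophage markers in its group, and 7 of the 10 purinergic genes had their highest Dclk1+ value there. Markers of tuft cells, for which Dclk1 is often used, were near 0 in both groups: the 5 markers together reached 2.11 to 4.69 CPM in the Dclk1+ group and 0 to 2.5 CPM in the Dclk1- group, and Gnat3 had no count in any library.

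All 10 genes passed the filter on low counts. With edgeR's quasi-likelihood test over all 13274 genes, 463 genes (3.49%) had an adjusted p under 0.05, with 328 (2.47%) higher and 135 (1.02%) lower in Dclk1+. Of the 10 purinergic genes 0 were among the higher and 1, Slc17a9, was among the lower genes. Groups that did not overlap in CPM were found in 2867 tested genes (21.6%), with Dclk1+ above in 1415 (10.7%) and below in 1452 (10.9%). Among the 10 these were Entpd1 and P2ry2 above and Slc17a9 below, while the groups of the other 7 genes overlapped. The median log2 fold change was 0.90 over the 10 genes and -0.08 over all genes tested. Because the set was chosen on this contrast, nothing is read from these counts. Without any 1 of the 7 libraries other than Dclk1+ library 4, edgeR called 0 of all genes, with 3092 to 4005 genes at an unadjusted p under 0.05.

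**Figure D1:**
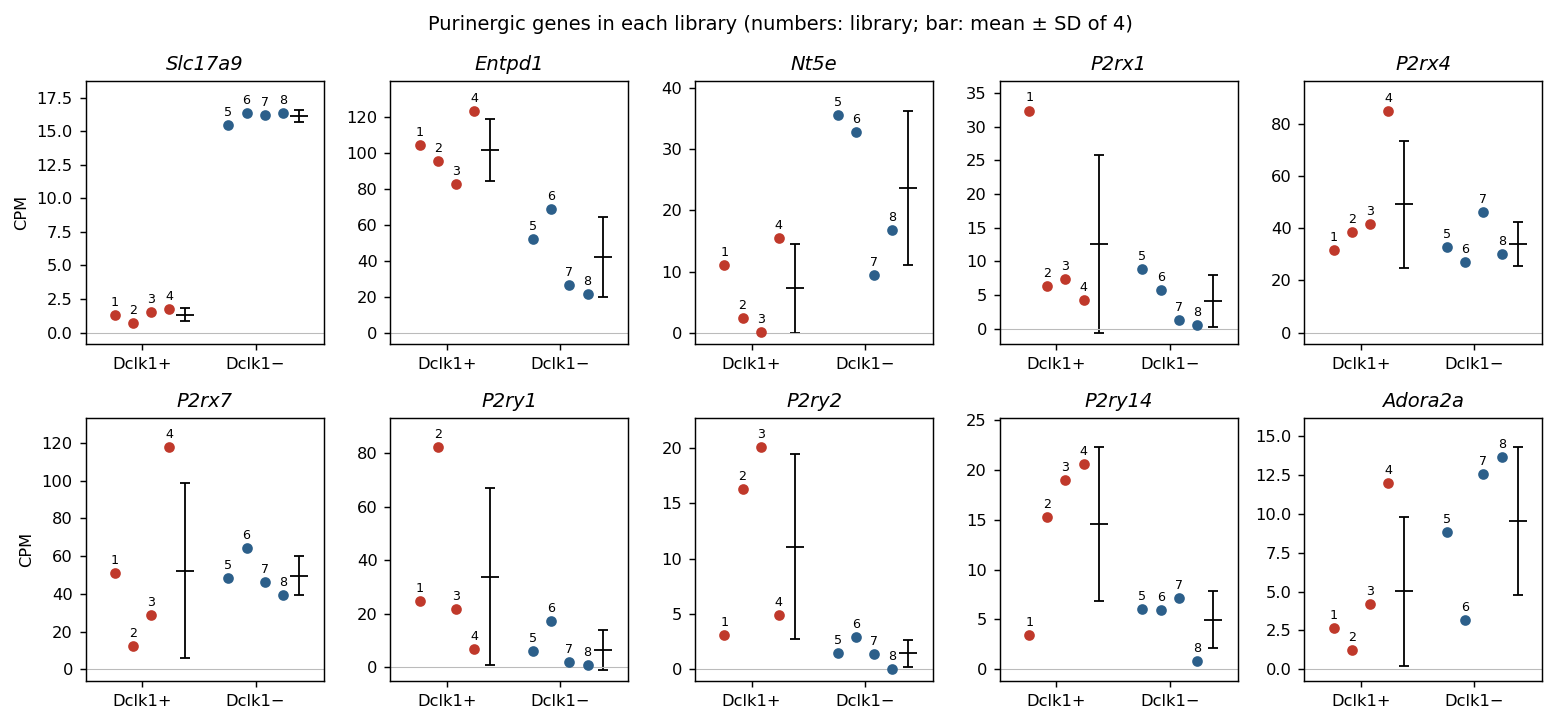
CPM (linear axes that include 0) of the 10 purinergic genes in each library, with red points for the 4 Dclk1+ libraries, blue points for the 4 Dclk1- libraries, the library number above each point and a bar for the mean ± SD of each group. Slc17a9 lay at 0.714 to 1.78 CPM in the Dclk1+ group and 15.4 to 16.4 CPM in the Dclk1- group, while most other genes overlapped or were carried by 1 library.

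Slc17a9, the transporter that fills vesicles with ATP, was low in every Dclk1+ library. It was at 1.33, 0.714, 1.54 and 1.78 CPM in Dclk1+ libraries 1 to 4, from 12, 7, 14 and 16 counts. In Dclk1- libraries 5 to 8 it was at 15.4, 16.4, 16.2 and 16.4 CPM, from 105, 135, 84 and 98 counts. The highest Dclk1+ library thus lay far below the lowest Dclk1- library. The group means were 1.34 ± 0.456 and 16.1 ± 0.453 CPM (SD, n = 4 each), and the log2 fold change was -3.57 ± 0.46 (SE), 11.9-fold lower in Dclk1+. The 4 Dclk1- values had an SD of 2.82% of their mean. Each of them lay within the 95% exact Poisson interval of every other, the narrowest of which, for library 6, ran from 13.7 to 19.4 CPM and covers counting error only. In RNA from mixed cells, fewer cells of a type and less RNA per cell cannot be told apart. Its log2 fold change lay between -3.63 and -3.37 in the 15 alternative analyses.

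Markers of lymphocytes were low in the same libraries as Slc17a9. The 4 B cell markers reported, out of a list with 1 more that is not reported here, and all 5 T cell markers had lower CPM in every Dclk1+ library than in any Dclk1- library. Their summed levels were 14.8 to 322 against 951 to 1651 CPM for B cells and 9.59 to 327 against 558 to 2530 CPM for T cells, and none was at 0 in a whole group. Pax5 and Foxp3, transcription factors of B cells and of regulatory T cells, passed edgeR's test (adjusted p = 0.0469 and 0.0466), and both calls were lost when any 1 of the same 7 libraries was left out. The other 8 B and T cell markers did not pass, nor did the other 4 markers of regulatory T cells, of which Foxp3 alone had groups that did not overlap.

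Pax5, Cd3e and Foxp3 are shown beside Slc17a9 and were picked for display after the values were seen. Some other B cell and regulatory T cell markers ran differently over Dclk1- libraries 5 to 8. Cd79a was at 196, 209, 595 and 499 CPM there and Cd79b at 253, 275, 830 and 637 CPM. Ms4a1, at 385, 358, 172 and 182 CPM, was lowest in library 7, as was Pax5. Among these libraries Ikzf2 and Ctla4 were lowest in library 7, at 20.3 and 11.0 CPM, where Foxp3, Il2ra and Tnfrsf18 were highest. Slc17a9 lay at 95.8% to 102% of its Dclk1- mean in the Dclk1- libraries, whereas Pax5 spanned 56.0% to 121% and Foxp3 51.4% to 203%. Cd3e, a T cell receptor chain gene, lay at 45.1%, 30.9%, 178% and 146% of its Dclk1- mean in libraries 5 to 8, so it was highest in libraries 7 and 8. In Dclk1+ libraries 1 to 4 Slc17a9 was at 8.27%, 4.44%, 9.58% and 11.04% of its Dclk1- mean, from 7 to 16 counts. Pax5 was at 9.05%, 1.47%, 2.5% and 15.4% of its own Dclk1- mean there, and Cd3e at 7.27%, 0.400%, 4.55% and 21.01%. Foxp3 was at 4.83%, 3.97%, 9.33% and 13.98% in the same libraries. The part of lymphocyte RNA in the level of Slc17a9 was not tested.

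**Figure D2:**
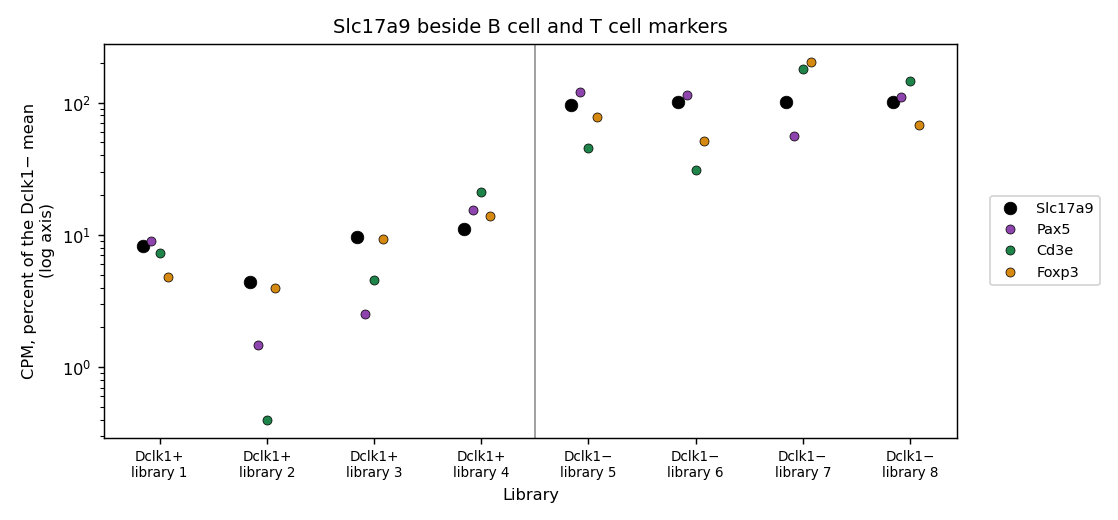
CPM of Slc17a9, the B cell gene Pax5 and the T cell genes Cd3e and Foxp3 in each library, as percent of each gene's mean over the 4 Dclk1- libraries (log axis, 1 point per gene and library). Over the Dclk1- libraries Slc17a9 lies at 95.8% to 102%, while Pax5 spans 56.0% to 121% and Cd3e 30.9% to 178%. The Slc17a9 range is narrower than its counting error. Some other B cell and regulatory T cell markers, not shown, ran differently over the Dclk1- libraries.

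The genes whose pattern over the 8 libraries was most like that of Slc17a9 were Aim1l, Dusp4, Dgka, Satb1 and Mcoln3. Likeness was measured by the root mean square difference of log2 CPM (prior count 2) centred on each gene's mean, over 12010 tested genes with at least 1 CPM on average. It was 0.45 for Aim1l to 0.55 for Mcoln3 on the log2 scale. Dgka, a diacylglycerol kinase, was at 75.5 ± 24.2 CPM in the Dclk1+ group and 476 ± 68.3 CPM in the Dclk1- group (SD, n = 4 each). Satb1, a chromatin organiser, was at 55.7 ± 34.2 and 502 ± 58.5 CPM. Dusp4, a phosphatase of MAP kinases, was at 0.853 ± 0.695 and 10.4 ± 2.01 CPM. Aim1l was at 0.658 ± 0.281 and 13.8 ± 4.67 CPM, and the cation channel gene Mcoln3 at 0.138 ± 0.166 and 4.65 ± 2.64 CPM. In Dclk1+ libraries Mcoln3, Aim1l and Dusp4 were near the floor, at 0 to 0.333, 0.306 to 0.889 and 0.306 to 1.78 CPM. There the prior count weighs on the likeness. The log2 fold changes of Mcoln3 and Aim1l were -4.93 and -4.36, against -3.57 for Slc17a9. Within the 10 purinergic genes the nearest to Slc17a9 was Adora2a, at 1.39 on the same scale.

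The ectonucleotidase genes differed in direction. Entpd1, which makes the ATP- and ADP-splitting enzyme CD39, was at 104, 95.4, 82.9 and 123 CPM in Dclk1+ libraries 1 to 4. Its level in Dclk1- libraries 5 to 8 was 52.2, 68.7, 26.3 and 21.4 CPM, and thus without overlap below the Dclk1+ group. On the log2 scale the fold change was 1.27 ± 0.40 (SE). The SD was 16.8% of the mean in Dclk1+ and 52.9% in Dclk1- libraries, the smallest relative spread of the 10 genes in Dclk1+. Nt5e, which makes the AMP-splitting enzyme CD73, was at 11.1, 2.35, 0.110 and 15.6 CPM in Dclk1+ libraries 1 to 4. Dclk1- libraries 5 to 8 held 35.7, 32.9, 9.46 and 16.9 CPM. Its groups overlapped, since Dclk1+ libraries 1 and 4 lay above Dclk1- library 7, and library 3 held a single count. For Nt5e the log2 fold change was -1.71 ± 1.0 (SE), and -2.93 by limma-voom.

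The balance of both enzymes was also read within each library, where no scaling between libraries enters. There were 9.40, 40.7, 752 and 7.93 counts of Entpd1 per count of Nt5e in Dclk1+ libraries 1 to 4. The value of library 3 rests on 1 Nt5e count, with a 95% exact binomial interval of 135 to 29741. In Dclk1- libraries 5 to 8 the ratio was 1.46, 2.09, 2.78 and 1.27. The lowest Dclk1+ ratio lay above the highest Dclk1- ratio, with or without library 3. This ratio and that of P2rx7 to P2rx4 were chosen after values were seen. Endothelial cells, regulatory T cells and B cells are among the cells known to carry CD39. The 5 regulatory T cell markers together were at 67.6 to 115 CPM in the Dclk1+ group and 174 to 269 CPM in the Dclk1- group. Of them Foxp3 alone had groups that did not overlap, and the B cell sums are given above. The 5 endothelial markers together were at 508 to 1866 CPM in the Dclk1+ group and 172 to 743 CPM in the Dclk1- group. None was at 0 in a whole group, and the groups of each overlapped. The macrophage and monocyte markers summed to 44.0 to 5181 CPM in Dclk1+ and 368 to 891 CPM in Dclk1- libraries. Their highest sum was in library 4, as was the highest Entpd1 level. The part of these cells in the level of Entpd1 was not tested.

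**Figure D3:**
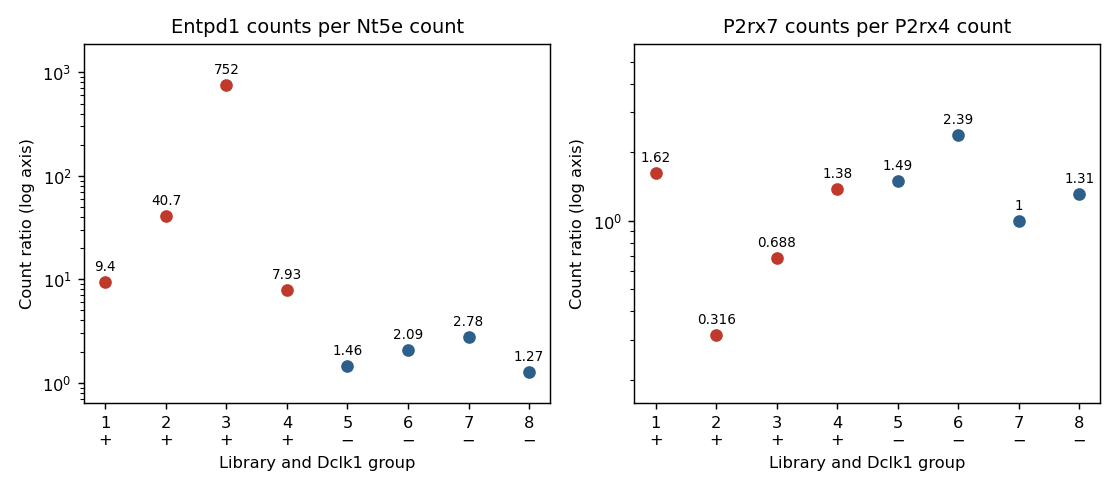
Count ratios within each library (log axes, 1 point per library, red for Dclk1+ and blue for Dclk1-), with counts of Entpd1 per count of Nt5e on the left and counts of P2rx7 per count of P2rx4 on the right. The Entpd1 to Nt5e ratio was 7.93 or more in Dclk1+ and 2.78 or less in Dclk1- libraries, and the P2rx7 to P2rx4 ratio was 0.316 to 1.62 in Dclk1+ and 1.0 to 2.39 in Dclk1- libraries.

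Entpd1 and P2ry2 are the genes of the set that lay higher in every Dclk1+ library, and the 250 bases before their annotated starts are shown for reference. They are RefSeq sequences of build GRCm38.p6, which is not the build of the counts, and 8 of the 10 genes, without Slc17a9 and Adora2a, matched an entry in the table of starts. Capitals mark the motifs searched on both strands, which were the GC box GGGCGG, the CCAAT box CCAAT, the TATA box TATAAA and the ETS core CCGGAA, with overlapping matches each counted. The motifs were chosen after values were seen. Entpd1 has 2 listed starts, with windows at chr19:40612116-40612365 and chr19:40659520-40659769 on the plus strand. The window of the first listed start of P2ry2 is chr7:101012054-101012303 on the minus strand.
Entpd1 start 1: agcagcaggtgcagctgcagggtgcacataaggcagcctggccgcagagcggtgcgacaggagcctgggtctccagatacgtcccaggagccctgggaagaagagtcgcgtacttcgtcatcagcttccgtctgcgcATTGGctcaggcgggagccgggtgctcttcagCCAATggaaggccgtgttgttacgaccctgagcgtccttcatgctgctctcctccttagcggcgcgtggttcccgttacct
Entpd1 start 2: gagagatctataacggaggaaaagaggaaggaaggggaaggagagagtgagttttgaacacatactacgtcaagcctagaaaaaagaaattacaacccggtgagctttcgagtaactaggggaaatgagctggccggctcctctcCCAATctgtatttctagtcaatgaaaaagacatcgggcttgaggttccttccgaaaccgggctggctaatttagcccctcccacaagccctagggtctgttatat
P2ry2 start 1: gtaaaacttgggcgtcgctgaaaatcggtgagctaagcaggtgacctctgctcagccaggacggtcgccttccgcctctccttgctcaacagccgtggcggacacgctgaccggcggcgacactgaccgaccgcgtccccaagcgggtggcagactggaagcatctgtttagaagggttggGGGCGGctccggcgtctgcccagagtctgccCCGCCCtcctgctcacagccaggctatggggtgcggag
The first Entpd1 window held 2 matches to CCAAT and the second held 1, a motif found in 33.9% of 32851 windows of the same length. The P2ry2 window held 2 matches to GGGCGG, which 32.7% of all windows hold. A second listed start of P2ry2, whose window at chr7:101011999-101012248 overlaps the first and is not printed, held 4 matches and had a GC content of 71.2%. None of the 3 printed windows held TATAAA or CCGGAA, found in 12.4% and 12% of all windows. Their GC content was 62.4%, 47.2% and 65.2%, beside a median of 52.4% over all windows. A match to these letters is a description of the sequence and not a binding site, and the counts do not show which Entpd1 start was used.

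The ATP-gated P2X channel genes overlapped between the groups. P2rx1, a fast channel best known from platelets and smooth muscle, was at 32.4, 6.33, 7.38 and 4.33 CPM in Dclk1+ libraries 1 to 4. The values of Dclk1- libraries 5 to 8 were 8.81, 5.82, 1.35 and 0.501 CPM. The groups overlapped and Dclk1+ library 1 stood apart. The log2 fold change of 1.6 ± 0.94 (SE) was 0.53 without that library. Library 1 also held the most RNA of the smooth muscle myosin gene Myh11, at 958 CPM against at most 39.2 CPM elsewhere. The 5 pericyte and smooth muscle markers summed to 96.1 to 1743 CPM in the Dclk1+ group and 21.5 to 90.5 CPM in the Dclk1- group, with the highest sum in library 1. The 5 platelet markers summed to 5.92 to 137 and 2.0 to 30.3 CPM, with the highest sum in library 4, where Pf4 was at 134 CPM, and 59.4 CPM in library 1. The markers differed in their top library. Itga2b and Ppbp were highest in library 1, at 39.6 and 14.9 CPM, and Gp9 and Gp1ba in Dclk1- library 6, at 1.09 and 3.76 CPM. Of these markers 0 were called, none was at 0 in a whole group, and their part in the level of P2rx1 was not tested.

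P2rx4 and P2rx7, whose genes are neighbours on 1 chromosome, had the smallest log2 fold changes in size of the 10 genes. Their SEs, given below, leave room for a difference in either gene. P2rx4, a channel of macrophage and lysosomal membranes, was at 31.5, 38.5, 41.7 and 85.0 CPM in the Dclk1+ group and 32.6, 26.9, 46.4 and 30.1 CPM in the Dclk1- group. P2rx7, a channel that opens at high ATP and acts upstream of the inflammasome in macrophages, was at 50.9, 12.1, 28.6 and 118 CPM in the Dclk1+ group and 48.6, 64.4, 46.4 and 39.4 CPM in the Dclk1- group. The groups overlapped for both genes, and both were highest in Dclk1+ library 4. In log2 terms the fold changes were 0.53 ± 0.38 for P2rx4 and 0.07 ± 0.59 for P2rx7 (SE). Without library 4 they were 0.25 and -0.55, so that the sign of P2rx7 turned. Leaving out other single libraries gave -0.04 to 0.40 for P2rx7. P2rx7 varied 9.69-fold within Dclk1+ and 1.63-fold within Dclk1- libraries. Library 4 held the most macrophage RNA: the 5 macrophage and monocyte markers summed to 5181 CPM there, 44.0 to 778 CPM in the other Dclk1+ libraries and 368 to 891 CPM in the Dclk1- group. None of these markers was at 0 in a group, and their part in both channels was not tested. The counts of P2rx7 per count of P2rx4 were 0.316 to 1.62 in Dclk1+ and 1.0 to 2.39 in Dclk1- libraries, which overlap.

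The P2Y receptor genes had higher means in Dclk1+, each with another library on top. P2ry1, the ADP receptor that starts platelet shape change, was at 24.7, 82.2, 21.7 and 6.78 CPM in Dclk1+ libraries 1 to 4 and 6.02, 17.1, 1.93 and 0.835 CPM in Dclk1- libraries 5 to 8. The groups overlapped because Dclk1+ library 4 lay below Dclk1- library 6. Its log2 fold change was 2.37 ± 0.98 (SE), and 1.43 without Dclk1+ library 2 or 3.64 without Dclk1- library 6. Library 2 also had the most fibroblast RNA, with 5 markers summing to 19233 CPM, against 2652 to 8490 CPM in the other Dclk1+ and 662 to 3894 CPM in the Dclk1- group, and none at 0 in a group. The part of fibroblasts in P2ry1 was not tested. In the GENCODE M21 annotation, which is of another build than the counts, an antisense gene, Gm37035, covers 23.1% of the exon bases of P2ry1. The annotation and the use of strand in counting are not stated, so reads on these shared bases cannot be told apart.

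P2ry2, the receptor for ATP and UTP that drives secretion in many ducts, was at 3.11, 16.3, 20.05 and 4.89 CPM in the Dclk1+ group and 1.47, 2.91, 1.35 and 0 CPM in the Dclk1- group. The groups did not overlap, but the lowest Dclk1+ value, in library 1, was close to the highest Dclk1- value, in library 6. This gave a log2 fold change of 2.92 ± 1.01 (SE). A count of 0 in Dclk1- library 8 allows a level of up to 0.501 CPM. Library 3, with the most P2ry2, also had the most duct RNA: the 5 duct markers summed to 564 CPM there, 51.4 to 245 CPM in the other Dclk1+ and 11.4 to 24.6 CPM in the Dclk1- group. Of these markers Sox9 was called higher (edgeR adjusted p = 0.0469) and none was at 0 in a whole group. Library 2, with the next highest P2ry2, had the lowest duct sum of its group, and the part of duct cells in P2ry2 was not tested.

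P2ry14, the receptor for UDP-glucose, was at 3.44, 15.3, 18.9 and 20.6 CPM in the Dclk1+ group and 6.02, 5.94, 7.15 and 0.835 CPM in the Dclk1- group. Dclk1+ library 1 lay below 3 of the 4 Dclk1- libraries, and the other 3 Dclk1+ libraries lay above all of them. P2ry14 had a log2 fold change of 1.54 ± 0.72 (SE), and the nearest pattern among the 10 genes was that of P2ry2. P2ry14 and P2ry1 had their lowest values of the 8 libraries in Dclk1- library 8, as did P2rx1 and P2ry2.

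Adora2a, an adenosine receptor gene whose product dampens T cell activity, was at 2.66, 1.22, 4.19 and 12 CPM in Dclk1+ libraries 1 to 4. The Dclk1- libraries, 5 to 8, had 8.81, 3.15, 12.6 and 13.7 CPM, so the groups overlapped. Dclk1+ library 4 lay above Dclk1- libraries 5 and 6, and library 6 lay below Dclk1+ library 3. For Adora2a the log2 fold change was -0.92 ± 0.75 (SE). It was -1.69 without Dclk1+ library 4 and -0.61 without Dclk1+ library 2. Dclk1- libraries 7 and 8, with the most Adora2a, also had the highest T cell marker sums, at 2530 and 2015 CPM. Dclk1+ library 4 had the highest T cell sum of its group, at 327 CPM, and the highest macrophage marker sum, at 5181 CPM. Its T cell sum was below those of Dclk1- libraries 5 and 6, at 752 and 558 CPM, which held less Adora2a. The part of T cells in Adora2a was not tested.

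**Figure D4:**
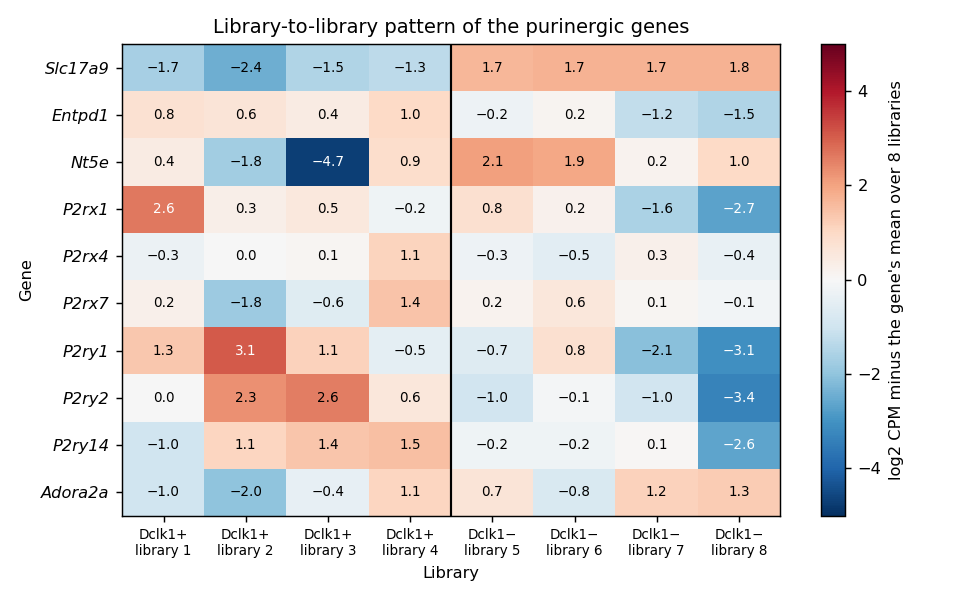
Heat map of log2 CPM (prior count 2) of the 10 purinergic genes in each library after subtracting each gene's mean over the 8 libraries, with red above and blue below that mean. Slc17a9 is below its mean in all 4 Dclk1+ libraries and evenly above it in the Dclk1- libraries, while P2rx1 is highest in library 1, P2ry1 in library 2 and Nt5e is lowest in library 3.

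To compare levels between genes, CPM was divided by the length of all annotated exons in kilobases. In Dclk1+ libraries Entpd1 had the highest mean, at 18.2 ± 3.05 CPM per kb (SD, n = 4), and Slc17a9 the lowest, at 0.419 ± 0.143. Between them stood P2rx7 (8.77), P2ry1 (7.89), P2rx4 (7.0), P2rx1 (4.80), P2ry2 (2.83), Adora2a (1.64), P2ry14 (1.32) and Nt5e (0.846 CPM per kb). In Dclk1- libraries the order began with P2rx7 at 8.33 ± 1.77 and Entpd1 at 7.55 ± 3.99 CPM per kb, followed by Slc17a9 at 5.03 ± 0.142. P2rx4 (4.84), Adora2a (3.12), Nt5e (2.76), P2rx1 (1.57), P2ry1 (1.51), P2ry14 (0.451) and P2ry2 (0.365 CPM per kb) came after it. In each group all 9 pairs of neighbours in the order had overlapping ranges, so the exact order is not fixed by these libraries. The lengths come from an annotation of another build and take in exons that these cells may not use.

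Other genes of nucleotide and nucleoside signalling were examined through 9 lists with 76 genes, of which 54 could be tested. The lists were written with earlier results of these data known. Over all lists 1 gene was called higher and 0 lower, beside 2.47% and 1.02% of all genes, while 13 were higher and 9 lower at an unadjusted p under 0.05, which 18.3% and 13.6% of all genes were. DESeq2 called 12 higher and 7 lower, beside 17.4% and 8.62% of all genes. With limma-voom 2 were higher and 3 lower, beside 3.07% and 3.58% of all genes. The counts at an unadjusted p given for single lists are to be read against the same 18.3% and 13.6%. The median log2 fold change was 0.05, beside -0.08 over all genes tested, with 30 positive and 24 negative values. The called gene was Xdh, which makes xanthine dehydrogenase, the enzyme that turns breakdown products of purines into uric acid. Xdh was at 207, 269, 142 and 146 CPM in Dclk1+ libraries 1 to 4 and at 60.1, 61.0, 51.8 and 34.6 CPM in Dclk1- libraries 5 to 8, with no overlap. Its log2 fold change was 1.88 ± 0.34 (SE, edgeR adjusted p = 0.0469), and the call was lost when any 1 library other than Dclk1+ library 4 was left out.

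**Figure D5:**
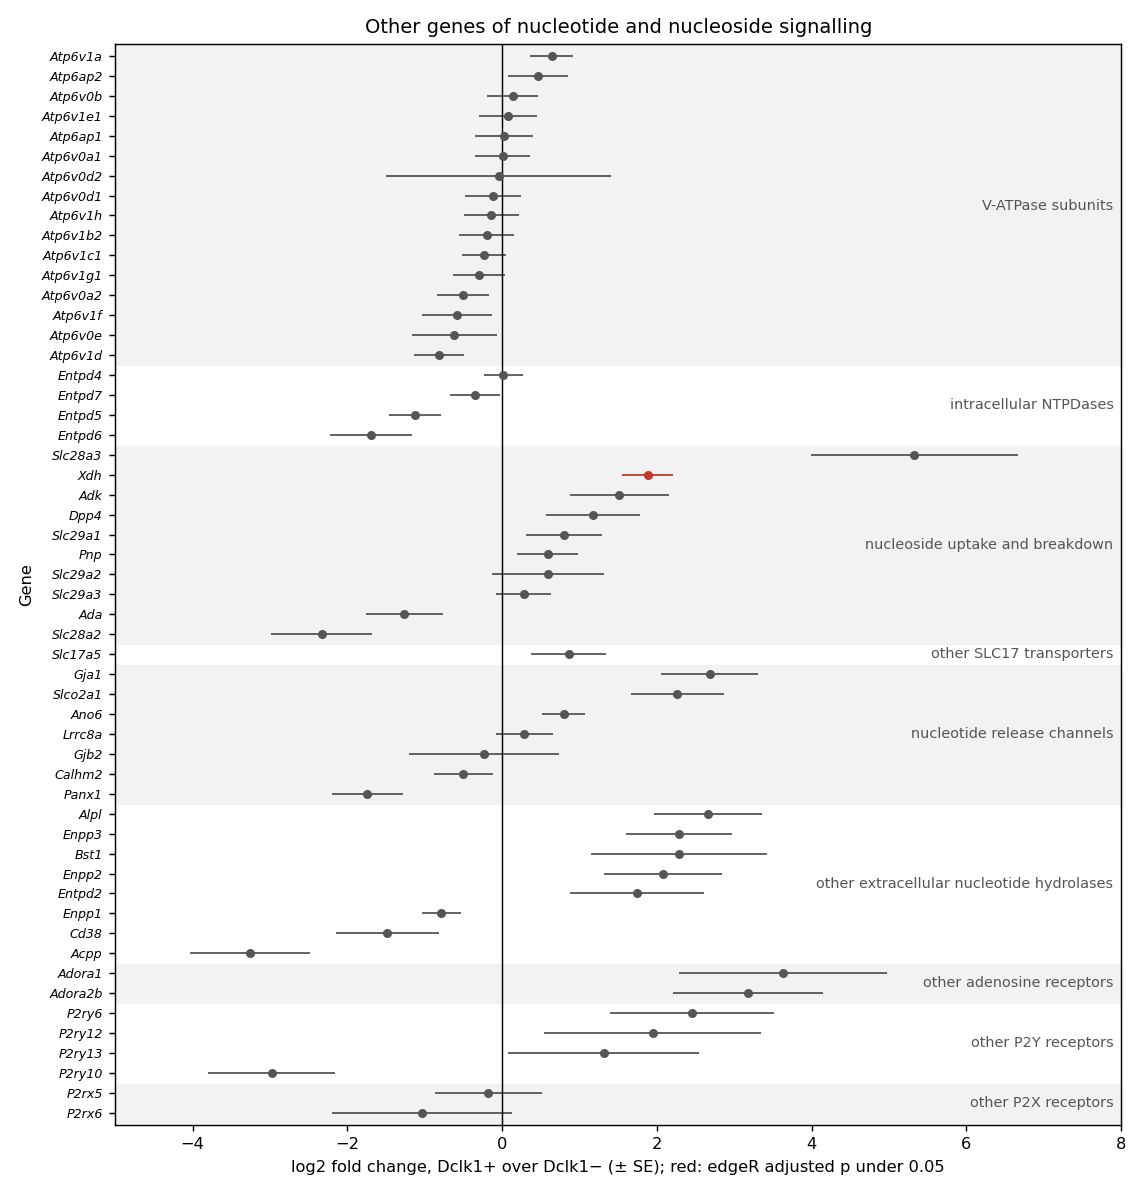
Log2 fold changes of Dclk1+ over Dclk1- (points, with bars for the SE) for the 54 tested genes of the 9 other lists, grouped by list, with genes of an edgeR adjusted p under 0.05 in red. Xdh, at 1.88, is the red point, and the V-ATPase subunits lie between -0.81 and 0.64.

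Among the receptors outside the 10 genes, the 2 tested P2X genes P2rx5 and P2rx6 had means of at most 2.37 CPM in either group, with log2 fold changes of -0.18 ± 0.69 and -1.04 ± 1.16 (SE). P2rx2 and P2rx3 did not pass the filter on low counts. Of 4 tested P2Y genes 0 were called, with 1 higher and 1 lower at an unadjusted p under 0.05. P2ry10, a receptor known from lymphocytes, is listed here by its symbol and is not taken as a nucleotide receptor. Its level was 6.78 ± 7.35 CPM in the Dclk1+ group and 53.5 ± 21.8 CPM in the Dclk1- group (SD, n = 4 each, edgeR adjusted p = 0.0594), with no overlap. P2ry6, the UDP receptor, reached 119 CPM in Dclk1+ library 4, with 1.35 to 19.4 CPM elsewhere (edgeR adjusted p = 0.147). P2ry12 and P2ry13, named after their values were seen, had their highest values in the same library, at 24 and 49.7 CPM, where the macrophage markers were also highest.

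Both other adenosine receptor genes that could be tested had higher means in Dclk1+, and neither passed. Adora1 was at 24.7, 1.02, 31.8 and 3.33 CPM in the Dclk1+ group and 3.53, 1.09, 0 and 0.167 CPM in the Dclk1- group (edgeR adjusted p = 0.104), with overlap. Adora2b was at 4.22, 15.9, 3.75 and 3.44 CPM in the Dclk1+ group and 0.881, 1.09, 0.966 and 0 CPM in the Dclk1- group. Its groups did not overlap, and its log2 fold change was 3.18 ± 0.97 (SE, edgeR adjusted p = 0.0695). It had a positive sign where Adora2a had a negative one, a difference that was not tested.

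Of 8 tested further hydrolases of extracellular nucleotides 0 were called, with 3 higher and 2 lower at an unadjusted p under 0.05. Enpp2, which makes the secreted phospholipase autotaxin, was at 233 ± 172 CPM in the Dclk1+ group and 55.1 ± 32.2 CPM in the Dclk1- group (edgeR adjusted p = 0.104). Cd38, an NAD-splitting enzyme of lymphocytes, was at 105, 9.18, 38.3 and 134 CPM in the Dclk1+ group and 177, 217, 172 and 238 CPM in the Dclk1- group. Its groups did not overlap (edgeR adjusted p = 0.157). Acpp, an acid phosphatase that can split AMP and was named after its values were seen, was at 3.01 ± 3.26 and 28.8 ± 10.3 CPM (edgeR adjusted p = 0.0503). Among 4 intracellular relatives of CD39, 0 were called and 2 were lower at an unadjusted p under 0.05. Entpd5 was at 35.8 ± 13.1 and 78.1 ± 11.8 CPM (edgeR adjusted p = 0.0668), and Entpd4 at 50.7 ± 5.96 and 50.1 ± 5.65 CPM.

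Routes for nucleotide release other than vesicles held no call among 7 tested genes, with 3 higher and 1 lower at an unadjusted p under 0.05. Lrrc8a, a subunit of volume-regulated anion channels, was at 195 ± 35.6 and 159 ± 68.8 CPM (edgeR adjusted p = 0.611), and Ano6, a calcium-activated scramblase and channel, at 205 ± 40.0 and 118 ± 14.1 CPM (edgeR adjusted p = 0.0890). Of genes named after their values were seen, the pannexin channel gene Panx1 was at 8.47 ± 2.04 and 28.4 ± 14.2 CPM (edgeR adjusted p = 0.0550) and the connexin gene Gja1 at 80.9 ± 46.8 and 12.6 ± 6.99 CPM (edgeR adjusted p = 0.0502). Both had groups without overlap. In the SLC17 family of vesicular and lysosomal anion transporters, the other testable gene was the sialic acid transporter gene Slc17a5, at 17.9 ± 7.99 and 9.85 ± 3.24 CPM (edgeR adjusted p = 0.245). The 18 V-ATPase genes, whose pump powers vesicle filling, held no call among 16 tested, with 1 higher and 1 lower at an unadjusted p under 0.05. Their log2 fold changes ran from -0.81 to 0.64 with a median of -0.13. Atp6ap1 was at 202 ± 46.4 and 198 ± 88.0 CPM, and Atp6v1a at 108 ± 23.8 and 69.5 ± 10.5 CPM (edgeR adjusted p = 0.974 and 0.151).

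Of 10 tested genes of nucleoside uptake and breakdown, Xdh was the called gene, and 3 were higher and 2 lower at an unadjusted p under 0.05. The nucleoside carriers Slc28a3 and Slc28a2, named after their values were seen, differed in sign. Slc28a3 was at 135, 10.1, 536 and 83.7 CPM in the Dclk1+ group and 9.26, 8.25, 0.386 and 0.835 CPM in the Dclk1- group (log2 fold change 5.33 ± 1.34 SE, edgeR adjusted p = 0.0526). Slc28a2 was at 17.9, 4.59, 21.6 and 62.9 CPM in the Dclk1+ group and 155, 147, 110 and 127 CPM in the Dclk1- group (log2 fold change -2.33 ± 0.65 SE, edgeR adjusted p = 0.0608). Neither passed, and the groups of neither overlapped.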

How the data were processed

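The authors deposited a table of raw counts, its rows gene symbols and its columns libraries, made from amplified polyA RNA (Ovation RNA-Seq V2 and TruSeq, per the labels' protocols). Per the submitters' processing notes, all libraries went through bcl2fastq 1.8.4 and HTSeq 0.6.1 on mm9. Those notes list TopHat2 2.0.4 with Bowtie2 2.0.0 in the case of Dclk1- library 5, and elsewhere TopHat with Bowtie 0.12.7. For the annotation and strand setting, nothing is stated there. Columns were matched by the sample number in the title, and groups follow the titles.

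Counts were analysed with edgeR 4.0.16 in R 4.3.3: filterByExpr (minimum count 10, minimum total 15), TMM scaling, and a quasi-likelihood test on group alone, with Benjamini-Hochberg adjustment over 13274 genes. CPM uses TMM-scaled library sizes. SEs come from the F statistic. The edgeR step was checked for coding errors on simulated counts with less spread than the real libraries. Intervals (95%, exact Poisson or exact binomial) and the limit set by 3 counts at a count of 0 cover counting error only. Exon lengths come from GENCODE M21. Alternatives were DESeq2 1.42.0, limma-voom 3.58.1, other scaling and filters, and leaving out each library.

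The members and lists were chosen with earlier results of these data known. Genes named were the 10 members and, per list, up to 5 called genes or else the 2 most abundant tested, plus the 5 genes most like Slc17a9 without predicted gene models or small RNA genes. Other names were chosen after their values were seen. One B cell marker is not reported here and is left out of the marker sums.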

Additional observations from a re-analysis of the deposited data

Results flagged for a closer look

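Among 52 groups of 4 libraries examined, 6 had a library at the edge that stood apart by the critical gap of Dixon for 4 values; chance alone gives this in about 1 in 20 groups. On the purinergic set these were Slc17a9 in Dclk1- library 5, at 15.4 CPM beside 16.2 to 16.4 CPM, and P2rx1 in Dclk1+ library 1, at 32.4 CPM beside 4.33 to 7.38 CPM. For Slc17a9 the other values lie within the counting interval of library 5, 12.6 to 18.7 CPM. Among the other genes, P2ry6 was at 119 CPM in Dclk1+ library 4 beside 4.90 to 19.4 CPM. Adora2b was at 15.9 CPM in Dclk1+ library 2 beside 3.44 to 4.22 CPM. Slc17a5 was at 5.02 CPM in Dclk1- library 7 beside 10.9 to 11.9 CPM. Atp6v1a was at 72.8 CPM in Dclk1+ library 1 beside 118 to 123 CPM.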

How the results depend on the processing

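The number of called genes moved by over 1.5 times under most choices; exceptions were limma-voom for higher calls (407), and DESeq2 size factors (193) and library sizes without Rn45s (151) for lower calls. Higher calls were 328 as reported, 665 with DESeq2 size factors in edgeR, 793 with no filter on low counts, 875 with a stricter filter (50 counts in 4 libraries), 2290 with DESeq2, 543 with library sizes without Rn45s and 0 to 1640 when 1 library was left out. Lower calls were 135 as reported, 264 with no filter, 245 with the stricter filter, 1132 with DESeq2, 475 with limma-voom and 0 to 841 when 1 library was left out. For the other purinergic genes, higher calls were 5, 5 and 5 with DESeq2 size factors, no filter and the stricter filter, 12 with DESeq2, 2 with limma-voom, 3 without Rn45s and 0 to 9 with 1 library left out, against 1 as reported. Lower calls were 1, 3 and 1, then 7, 3 and 1, and 0 to 6, against 0. The values above 0 in the leave-one-out fits are those without Dclk1+ library 4, and the cause was not tested. Signs of the 10 purinergic genes were the same in all alternatives that gave a value, except for P2rx7, which kept its sign in 11 of 15. The stricter filter gave no value for P2ry2 and P2ry14. The deposited column names number both groups 1 to 4, and a fit with these numbers as a replicate block, added after seeing the data, called 1106 genes higher and 514 lower, and 3 other purinergic genes higher and 3 lower. Same-numbered libraries had correlations of 0.141, 0.103, -0.0882 and 0.300 between their deviations from the group means, and number 4 alone correlated best with its own number. With 4 libraries in each group, these correlations cannot decide whether libraries were paired. The main fit used group alone. With 7 to 16 counts of Slc17a9 in each Dclk1+ library, counting error limits what differences among those libraries can be seen.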
